A study of Rattus norvegicus with 18 samples.

Results

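Bcat1 encodes the cytosolic branched-chain aminotransferase, which moves the amino group of leucine, isoleucine or valine onto alpha-ketoglutarate and so makes glutamate. Its mitochondrial partner is encoded by Bcat2, and the carbon skeletons left over are burned in mitochondria. Bcat1 is silent in most adult tissues, is active in brain, and is known to be switched on in several tumour types. Medullary thyroid carcinoma, the tumour studied here, arises from the calcitonin-secreting C cells, which are neuroendocrine cells that lie between the hormone-producing follicles of the thyroid.

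The tumours came from MENX rats, in which Cdkn1b, coding for the cell cycle inhibitor p27Kip1, is mutated, a strain prone to several neuroendocrine tumours. The 18 arrays, each from an animal with its own code, fell into 3 label groups of 6: homozygous mutants at 9 months, heterozygous mutants at 9 months and heterozygous mutants at 18 months. All were of the mixed Sprague–Dawley white eye/Wistar–Kyoto background, kept pathogen-free and untreated. Every animal carried at least 1 mutant allele, no wild-type or normal thyroid was among the samples, and the labels give no sex, litter or array date. Homozygous tumours were taken at 9 months only, so the genotypes can be compared at that age alone.

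The comparison described here split the 18 tumours by Bcat1 itself. Bcat1 has 1 probe set, and a tumour counted as Bcat1-high where its log2 value reached 9, whatever its genotype or age. This gave 5 high and 13 low tumours. Homozygous replicate 3 measured 9.80, and 18-month replicates 1, 2, 3 and 6 were at 10.1, 10.5, 11.3 and 10.6. The low tumours ran from 6.14 through a median of 6.51 to 8.18. Thus 4 of 6 tumours of 18 months, 1 of 6 homozygous tumours and 0 of 6 heterozygous tumours of 9 months were high. The tumour just inside the threshold was homozygous replicate 3 at 9.80, and the one just outside was homozygous replicate 5 at 8.18. Because both groups were chosen by their measured Bcat1 values, everything that sets high against low tumours is a description without a test. Below, the 5 high tumours are always listed in the same order, homozygous replicate 3 first and then 18-month replicates 1, 2, 3 and 6, and low tumours are given as lowest, median and highest. All values are log2 levels, and all differences are high minus low on that scale.

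**Figure D1:**
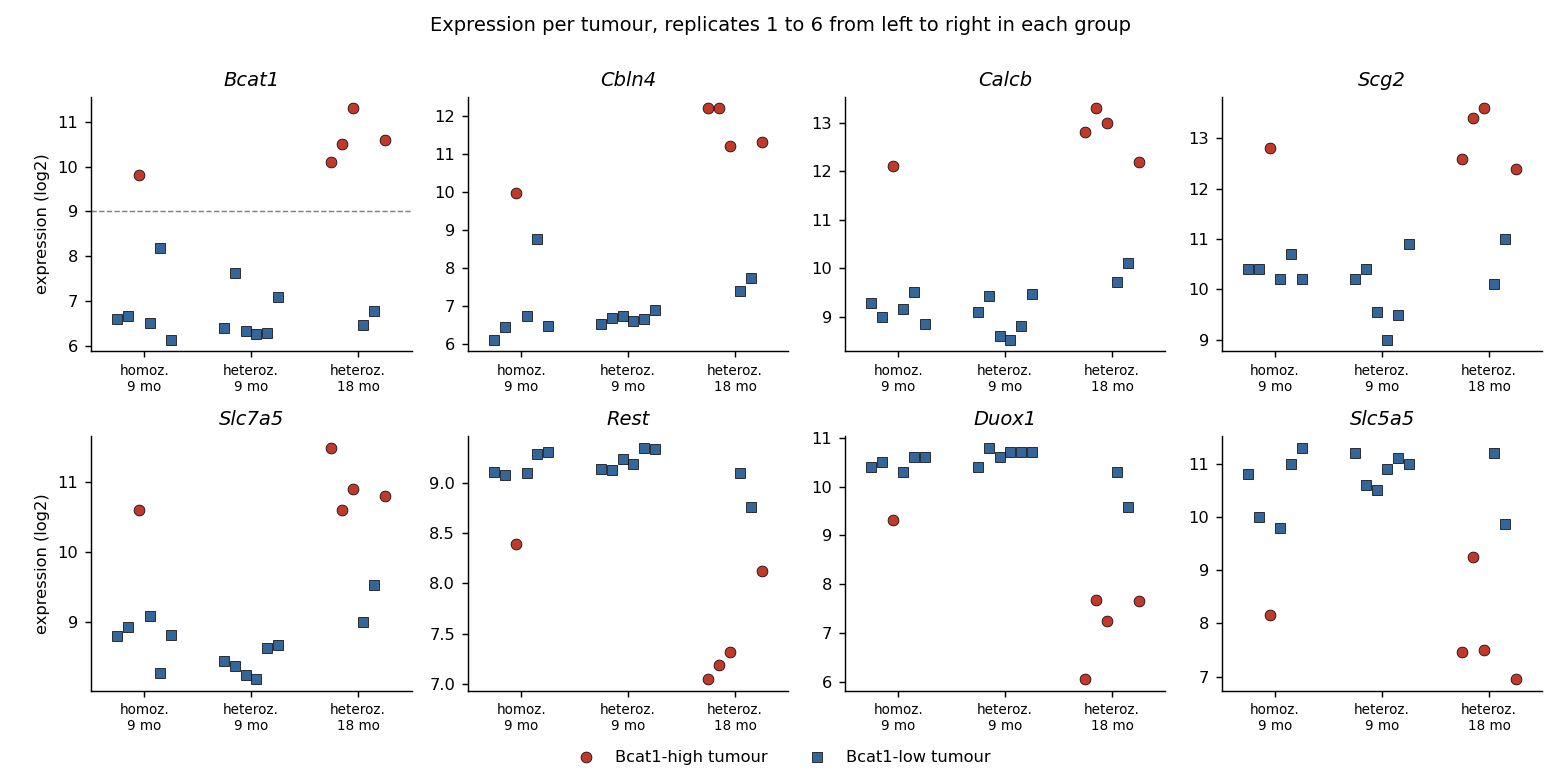
Log2 expression (vertical axis, not from 0) of 8 genes in each of the 18 tumours, by label group (horizontal axis), with replicates 1 to 6 from left to right; red circles are Bcat1-high and blue squares Bcat1-low tumours, and the dashed line in the Bcat1 panel is the threshold of 9. For Cbln4, Calcb, Scg2 and Slc7a5 the 5 red circles lie above all 13 blue squares, and for Rest, Duox1 and Slc5a5 below them.

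All tumours carried the C cell hallmark. Calca, the gene of calcitonin, measured 14.0 to 14.1 in high and 13.7 to 14.0 in low tumours, close to the brightest probe set of the array (14.46 on average), so its room upwards was short. Ret, the receptor kinase mutated in hereditary medullary carcinoma, measured 10.8 to 11.4 and 10.9 to 11.5. Cdkn1b measured 11.0 to 11.1 in high and 10.6 to 11.2 in low tumours, and it checks no genotype, since where its probes lie on the transcript is unstated in the sources used here. Array medians lay between 7.55 and 7.65, and the median difference over all genes was -0.0073.

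Over the 11369 genes other than Bcat1 that passed the filter on low values, 460 (4.05%) were set apart upwards and 457 (4.02%) downwards. Set apart means that all 5 high tumours lay beyond all 13 low ones and that the means differed by at least 1. Without the minimum difference, 1366 genes (12%) lay wholly above and 1237 (10.9%) wholly below. Nothing is read from these shares, since the split is the rule itself. With the threshold at 10, which moves homozygous replicate 3 into the low group, the upward count was 262. With the threshold at 8, which moves homozygous replicate 5 into the high group, the counts were 25 and 2.

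Cbln4, a secreted cerebellin that links synaptic partners, had the largest mean difference among the genes set apart. Its levels were 9.97, 12.2, 12.2, 11.2 and 11.3 in the high tumours and 6.11, 6.67 and 8.75 in the low ones. The means were 11.4 ± 0.905 (SD, n = 5) and 6.9 ± 0.694 (n = 13), a difference of 4.48 (22.4-fold). The 2 groups did not overlap, and the highest low tumour was homozygous replicate 5. Calcb, which encodes beta-CGRP, a vasodilating neuropeptide, measured 12.1, 12.8, 13.3, 13.0 and 12.2 against 8.53, 9.16 and 10.1. It lay 3.49 higher (11.2-fold), while its paralogue Calca lay only 0.19 higher, and whether their probes share targets was not checked here. Scn3b, an auxiliary subunit of sodium channels, measured 9.53, 10.4, 10.8, 10.4 and 7.71 against 5.8, 6.27 and 7.57, a difference of 3.43. The lowest high tumour, 18-month replicate 6, was barely above the highest low one.

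Further genes of this kind were the Golgi GTPase Rab6b (3.23), the G protein subunit Gng3 (2.95), the neuronal ankyrin-repeat gene Ankrd34c (2.89) and Dpp6, an auxiliary subunit of potassium channels (2.83). Nrsn2, a neuronal membrane protein, lay 2.81 higher, and the Ras-like GTPase Rit2 2.76 higher. Scg2, the granule protein secretogranin II, measured 12.8, 12.6, 13.4, 13.6 and 12.4 against 9.0, 10.2 and 11.0, a difference of 2.76. All 5 high tumours exceeded every low one by at least 1 log2 unit. Mmp12, an elastase best known from macrophages, lay 2.71 higher, and Syt1, a calcium sensor of vesicle release, 2.67 higher. Mmp12 measured 9.23, 10.4, 9.98, 10.2 and 11.0 against 6.66, 7.53 and 8.25. The tumour highest for Mmp12, 18-month replicate 6, was also the one with the highest mean over the 14 macrophage genes (9.42, against 8.47 to 8.74 in the other high tumours and 8.28 to 8.70 in the low ones). The part of macrophages in the Mmp12 values was not tested.

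Programmes of secretory and excitable cells were higher as groups. Of 25 measured C cell and neuroendocrine genes 15 were set apart upwards and 0 downwards, with a median difference of 1.32. Besides Calcb, Scg2 and Syt1, Syt4, a synaptotagmin of dense-core granules, lay 2.43 higher (10.1, 10.4, 10.8, 10.9 and 10.4 against 7.51, 8.09 and 9.21). The list mean was 11.4 to 11.6 in high and 9.79 to 11.0 in low tumours, and the log2 of the summed levels was 16.8 to 17.0 and 15.6 to 16.5. Of the 25 differences 21 were positive and 4 negative, and Ret (-0.08) and Chga were among the negative ones. Chga, the gene of chromogranin A, was at -0.21, with 12.3 to 12.7 in high and 11.8 to 13.2 in low tumours. Chga is also in the parathyroid list, whose genes varied widely among these tumours, and their part in the Chga values was not tested.

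Of 24 genes of synaptic vesicles and exocytosis 13 were set apart upwards and 0 downwards (median 1.02). Snap25, Syt1 and Syt4 belong to this list and to the C cell list, so the counts of these lists are not separate. Rab3b, a GTPase that docks secretory vesicles, measured 11.2, 11.4, 11.2, 11.2 and 10.9 against 8.19, 8.95 and 9.72, a difference of 2.30. Syt5, another synaptotagmin, measured 9.50, 10.3, 9.38, 9.23 and 9.55 against 7.07, 7.43 and 7.77, a difference of 2.17. Neither gene overlapped between the groups.

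Of 20 voltage-gated channel genes 10 were set apart upwards and 0 downwards (median 1.36). Scn2a, a pore subunit of sodium channels, lay 2.29 higher (9.29 to 9.99 against 6.31 to 8.18). Its partner Scn2b lay 2.13 higher (9.48 to 10.4 against 7.36 to 8.55). Cacna1e, the pore of R-type calcium channels, lay 2.13 higher as well (8.55 to 9.83 against 6.6 to 7.44). The list mean was 9.25 to 9.83 in high and 7.92 to 8.73 in low tumours, without overlap.

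Of 17 genes of GABA and glycine signalling on the array, 10 passed the filter. Of these 10, 4 were set apart upwards and 0 downwards, and all 10 differences were positive (median 1.85). The filter used the mean over all 18 arrays, so a weak gene could pass through the high tumours alone. Glrb did so, with a low mean of 5.85. Nothing is therefore read from the shared sign. The GABA-A receptor subunits Gabrb1 and Gabra4 lay 2.11 and 1.68 higher, the GABA-B receptor subunit Gabbr2 1.71 and the glycine receptor subunit Glrb 1.98. Gabrb1 measured 10.1, 10.7, 10.6, 10.6 and 10.5 against 7.51, 8.27 and 9.48. Glrb measured 7.08, 8.10, 8.53, 7.33 and 8.14 against 5.56, 5.81 and 6.42, so the low tumours lay below or near the filter of 6.32 and the size of this difference is compressed. Of 10 synapse organisers 3 were set apart upwards and 0 downwards (median 0.48): Cbln4, the adhesion protein Lrrtm2 (1.93) and the neuroligin Nlgn1 (1.51). Of 12 peptide hormone receptors 1 was set apart, the incretin receptor Gipr. It measured 9.30, 11.3, 11.2, 10.8 and 10.3 against 7.22, 8.15 and 8.75, a difference of 2.42. The median of this list was -0.06, so Gipr did not stand for its group.

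**Figure D2:**
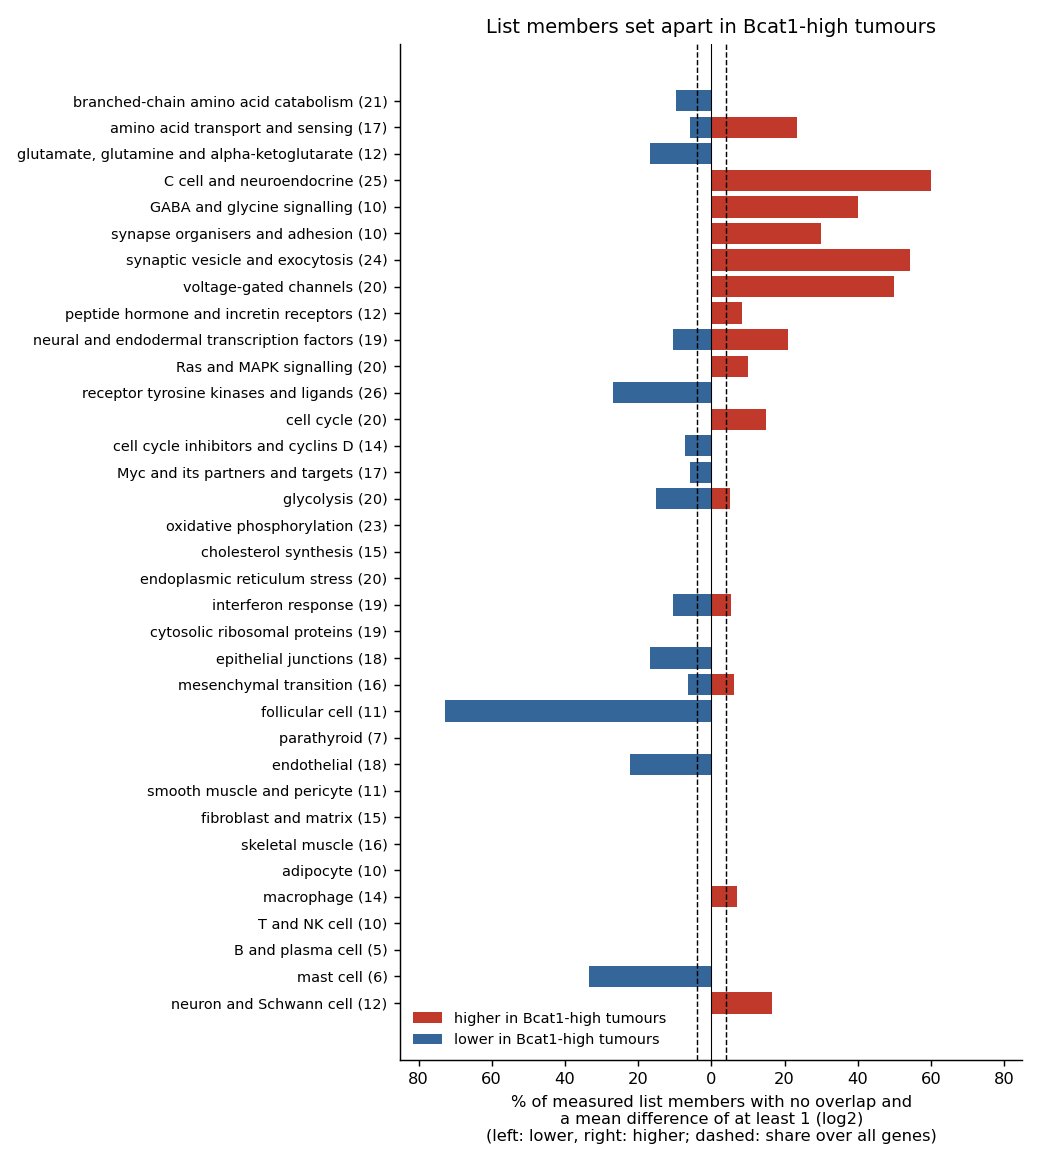
Share of the measured members of each of the 35 gene lists (vertical axis, number measured in brackets) that were set apart in the 5 Bcat1-high tumours, in percent (horizontal axis from 0 in both directions), upwards in red and downwards in blue; the dashed lines are the shares over all 11369 genes, 4.05% and 4.02%. C cell (15 of 25), vesicle (13 of 24) and channel genes (10 of 20) reach farthest to the right and follicular genes (8 of 11) farthest to the left.

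Among 19 neural and endodermal transcription factors 4 were set apart upwards and 2 downwards (median -0.01). Myt1l, a zinc finger factor of neurons, lay 1.77 higher, the forkhead factor Foxa2 1.58 and the LIM factor Isl1 1.32. Foxa2 and Isl1 belong to the C cell list as well. Isl1 measured 11.1, 10.9, 11.3, 11.3 and 10.9 against 9.19, 9.85 and 10.7. Rest went the other way. Rest is the repressor that keeps neuronal genes silent outside the nervous system by binding the RE1 element. It measured 8.39, 7.05, 7.19, 7.32 and 8.12 in the high tumours and 8.76, 9.14 and 9.35 in the low ones, a difference of -1.55. The groups did not overlap, and the homozygous tumour was the highest of the high ones.

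Promoters were searched for the left part of the RE1 element because Rest lay lower and many neuronal genes higher in the same tumours, so the motif was chosen after the values were seen. The letters TTCAGCACC occurred on either strand in 9 of 362 promoters of genes set apart upwards (2.49%), in 1 of 351 set apart downwards (0.285%), in 44 of 9400 of all genes described (0.468%) and in 104 of 27457 in the RefSeq table (0.379%). Each window was the first one listed for its gene on GRCr8, from 250 bases before to 50 after the start. The right part, GGACAGCGC, shortened by 1 letter after a longer form had been searched, occurred in 6 of the upward promoters (1.66%), 5 of the downward ones (1.42%) and 76 of all described (0.809%). The cAMP response element TGACGTCA, a site known from neuroendocrine genes, occurred in 18 (4.97%), 7 (1.99%) and 273 (2.9%). The E-box CACGTG, bound by Myc among others, occurred in 25 (6.91%), 20 (5.7%) and 855 (9.1%). These matches describe letters in a window, not binding, and the shares were not tested.

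Of the 9 upward genes with the left RE1 part, 5 held it wholly before the start, and these windows are shown with the matched letters in capitals, 5′ to 3′ along the strand on which the motif reads. They lie at chr8:118409005-118409037 on the plus strand, chr5:130367787-130367819 on the plus strand, chr6:143582535-143582567 on the minus strand, chr9:88256908-88256940 on the plus strand and chr1:190987498-190987530 on the minus strand.
Celsr3: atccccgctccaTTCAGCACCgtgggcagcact
Elavl4: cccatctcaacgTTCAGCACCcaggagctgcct
Ptprn2: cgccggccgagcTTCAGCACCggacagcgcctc
Scg2: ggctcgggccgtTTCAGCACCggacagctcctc
Sez6l2: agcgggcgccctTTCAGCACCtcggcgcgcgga
Celsr3, an adhesion receptor of axon guidance, lay 1.58 higher in the high tumours, the neuronal RNA-binding gene Elavl4 1.75, the granule phosphatase gene Ptprn2 1.51, Scg2 2.76 and the seizure-related gene Sez6l2 1.77. Scg2 held a cAMP response element as well, so the 250 bases before its start, chr9:88256867-88257116 on the minus strand, are shown with both matches in capitals. The first is the cAMP response element (at -123 from the start) and the second is the left RE1 part as it reads on the opposite strand (at -62).
Scg2: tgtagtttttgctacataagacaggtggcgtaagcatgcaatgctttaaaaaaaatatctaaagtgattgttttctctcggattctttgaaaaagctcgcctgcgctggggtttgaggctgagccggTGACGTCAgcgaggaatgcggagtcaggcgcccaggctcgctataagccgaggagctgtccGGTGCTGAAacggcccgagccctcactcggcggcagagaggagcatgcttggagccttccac

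The pathway of Bcat1 itself was not higher with it. Of 21 other genes of branched-chain amino acid catabolism 0 were set apart upwards and 2 downwards, and 17 of 21 differences were negative (median -0.31). Bcat2 measured 8.63, 7.98, 8.37, 8.39 and 8.24 against 9.09, 9.29 and 9.81, a difference of -1.01. Pccb, a subunit of propionyl-CoA carboxylase, measured 10.1, 9.59, 9.51, 9.47 and 9.63 against 10.6, 11.0 and 11.2, a difference of -1.24. For both genes the homozygous tumour lay nearest to the low group.

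Of 17 genes of amino acid transport and sensing 4 were set apart upwards and 1 downwards (median 0.33), all 5 of them carriers. Slc7a5, the light chain of the main leucine transporter, measured 10.6, 11.5, 10.6, 10.9 and 10.8 against 8.18, 8.67 and 9.53, a difference of 2.21 (4.63-fold). The heavy chain Slc3a2 was at -0.27. Slc7a11, the cystine and glutamate exchanger, measured 6.85, 8.29, 8.10, 8.80 and 8.50 against 5.54, 5.91 and 6.46, a difference of 2.17, again with low tumours around the filter. The glutamine carrier Slc1a5 lay 1.29 higher, and another glutamine carrier, Slc38a3, differed by -1.95. Of 12 genes of glutamate and alpha-ketoglutarate metabolism 0 were set apart upwards and 2 downwards: Psat1, a transaminase of serine synthesis (-2.10), and the mitochondrial isocitrate dehydrogenase Idh2 (-1.03). Psat1 measured 11.6, 8.13, 10.6, 10.5 and 11.2 against 12.2, 12.5 and 12.8, with 18-month replicate 1 far below the rest.

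Thyroid follicle genes were lower. Of 11 measured, 8 were set apart downwards and 0 upwards (median -2.19). Duox1, which supplies the hydrogen peroxide for hormone synthesis, measured 9.31, 6.06, 7.67, 7.24 and 7.66 against 9.59, 10.6 and 10.8, a difference of -2.89. Slc5a5, the iodide pump, measured 8.15, 7.46, 9.25, 7.51 and 6.96 against 9.79, 10.9 and 11.3, a difference of -2.85. The deiodinase genes Dio1 and Iyd differed by -2.70 and -2.66. In each of these 4 genes the groups were separate, and the homozygous tumour was the highest of the 5 in 3 of them. Tg, the thyroglobulin gene, measured 14.2, 11.1, 14.0, 14.0 and 13.9 against 14.3, 14.3 and 14.4, so it lay near the top of the scale in all but 18-month replicate 1. The list mean was 7.79 to 10.6 in high and 11.2 to 11.6 in low tumours, and the log2 of the summed levels was 12.7 to 15.2 and 15.5 to 15.7. Log2 values of this kind have no zero, so no marker can be called absent. In bulk tissue fewer cells of a type and less RNA per cell cannot be told apart.

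Of the largest differences downwards outside that list, Dsc3, a desmosomal cadherin, measured 8.53, 5.91, 7.25, 8.05 and 7.86 against 9.42, 10.7 and 11.4, a difference of -3.11. The potassium channel gene Kcnj16 differed by -2.91, the anion transporter relative Slc26a10 by -2.78 and the G protein subunit Gng7 by -2.63. The proton pump subunit Atp6v0a4 differed by -2.60, the cadherin Cdh16, known from kidney and thyroid epithelium, by -2.53, the potassium channel gene Kcnh7 by -2.52 and the bicarbonate carrier Slc4a5 by -2.51. Of 18 epithelial junction genes 3 were set apart downwards and 0 upwards: the claudins Cldn7 (-2.13) and Cldn3 (-1.28), and the epithelial factor Grhl2 (-1.91). Of 16 genes of mesenchymal transition 1 was set apart each way, N-cadherin (Cdh2, 2.21) upwards and the integrin Itgb6 (-1.65) downwards.

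Of 26 receptor tyrosine kinases and ligands 7 were set apart downwards and 0 upwards (median -0.40). Fgfr2, a fibroblast growth factor receptor, measured 10.5, 7.48, 8.91, 9.07 and 10.1 against 10.7, 11.5 and 11.7, a difference of -2.23. The insulin-like growth factor receptor Igf1r differed by -1.58. The vascular receptors Kdr and Flt1 differed by -1.67 and -1.52, and both belong to the endothelial list as well. Of 18 endothelial genes 4 were set apart downwards and 0 upwards, and all 18 differences were negative (median -1.09). Emcn, a surface sialomucin of capillaries and veins, differed by -1.93 and Esm1, a proteoglycan of growing vessels, by -1.47. The endothelial list mean was 7.86 to 8.92 in high and 8.83 to 9.75 in low tumours, where homozygous replicate 1 was the lowest of the low. Its part in the receptor values was not tested.

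**Figure D3:**
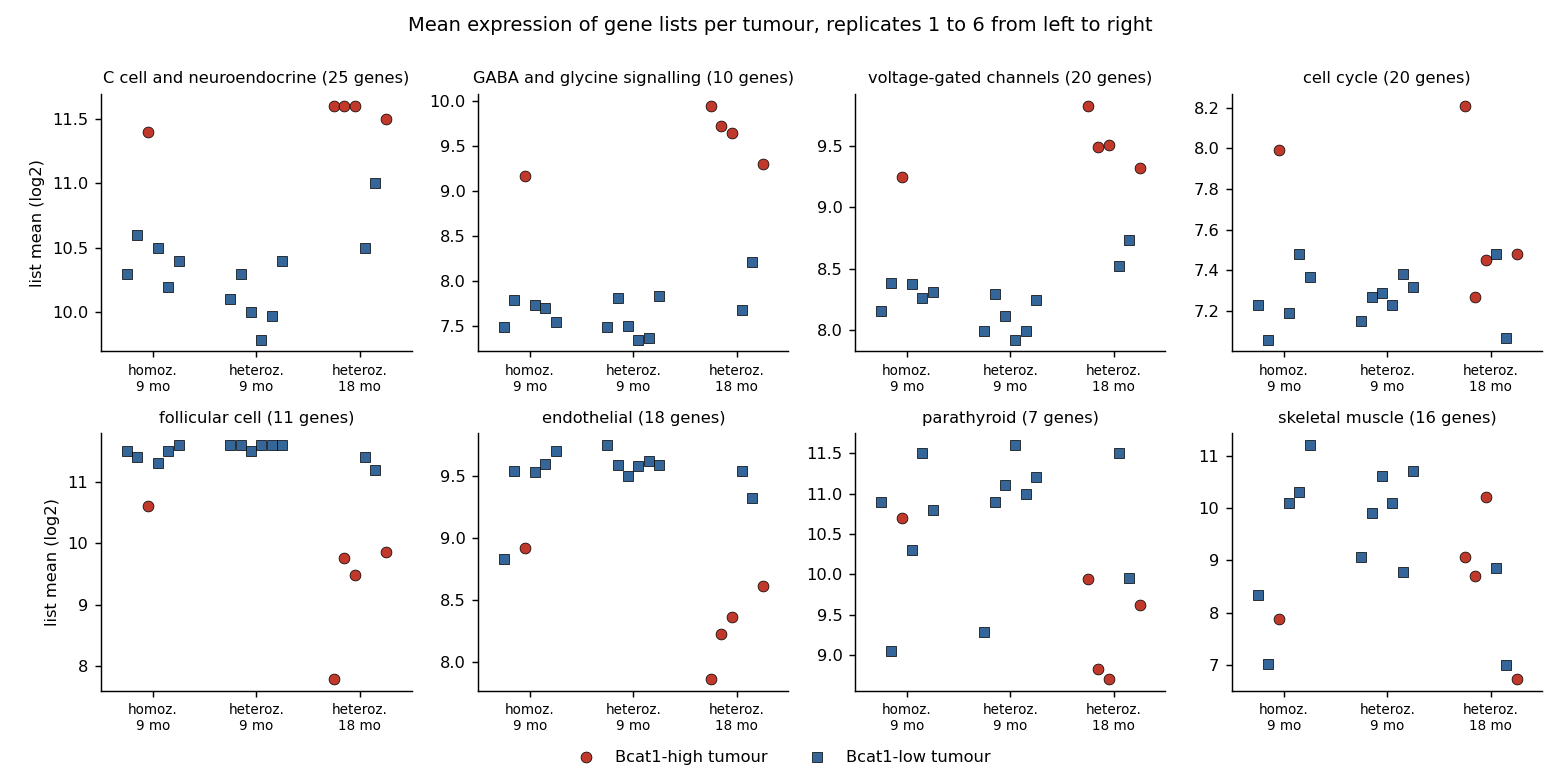
Mean log2 expression of 8 gene lists (vertical axes, not from 0) in each tumour by label group, replicates 1 to 6 from left to right; red circles are Bcat1-high and blue squares Bcat1-low tumours. The follicular mean separates the groups (7.79 to 10.6 against 11.2 to 11.6), as does the C cell mean (11.4 to 11.6 against 9.79 to 11.0), while parathyroid and skeletal muscle means overlap.

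Other cell types differed less or varied within the groups. Of 7 parathyroid genes 0 were set apart, and the list mean was 8.71 to 10.7 in high and 9.06 to 11.6 in low tumours. Pth, the parathyroid hormone gene, measured 13.9, 13.2, 6.02, 6.54 and 11.1 against 8.33, 14.2 and 14.3. The parathyroid factor Gcm2 measured 9.18, 7.17, 6.12, 6.14 and 5.85 against 5.89 to 11.3. Both groups thus held specimens rich and poor in these transcripts. Of 16 skeletal muscle genes 0 were set apart, and the list mean was 6.74 to 10.2 against 7.0 to 11.2. Smooth muscle, fibroblast, T and NK cell, and B and plasma cell lists also had 0 members set apart. Of 10 adipocyte genes 0 were set apart, but all 10 differences were negative (median -0.88), with list means of 7.23 to 8.68 in high and 7.98 to 9.97 in low tumours. Of 6 mast cell genes 2 were set apart downwards, the proteases Cpa3 (-1.37) and Cma1 (-1.08). Of 12 neuron and Schwann cell genes 2 were set apart upwards, the neuronal tubulin Tubb3 (1.79) and the microtubule protein Map2 (1.13). Over this list 7 differences were positive and 5 negative (median 0.11). Sox10, the defining factor of Schwann cells, was at -0.18, and Rbfox3, a marker of mature neurons, at -0.38. Both were named after their values were seen, and the part of such cells was not tested. T and NK cell genes stood out in 18-month replicate 6 alone, with a list mean of 8.25 against 7.01 to 7.31 in the other high tumours.

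Among growth programmes, the cell cycle list and the Ras and MAPK list had upward shares above that over all genes (4.05%). Both counts were small, and the shares were not tested. Of 20 cell cycle genes 3 were set apart upwards and 0 downwards, with 17 of 20 differences positive (median 0.48). Top2a, the mitotic topoisomerase, measured 8.88, 9.54, 7.61, 8.01 and 7.92 against 6.45, 7.14 and 7.58, a difference of 1.3. Homozygous replicate 3 and 18-month replicate 1 were the highest, and replicate 2 was scarcely above the low tumours. Cyclin E2 (Ccne2) lay 1.29 higher and Rrm2, a subunit of ribonucleotide reductase, 1.19 higher. Among cell cycle inhibitors and cyclins D 1 of 14 genes was set apart, the kinase Cdk6 (-1.54). Myc measured 7.53, 6.53, 6.64, 6.69 and 7.47 against 7.8, 8.16 and 8.97, a difference of -1.27, and was the only gene set apart among 17 of its list. Of 20 Ras and MAPK genes 2 were set apart upwards, the ETS factor Etv5 (1.42) and the phosphatase Dusp4 (1.29), with a list median of 0.49.

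In glycolysis 1 of 20 genes was set apart upwards, the brain aldolase Aldoc (1.63), and 3 downwards: the lactate exporter Slc16a3 (-1.90), hexokinase 2 (Hk2, -1.57) and the lactate dehydrogenase subunit Ldhb (-1.40). Of 19 interferon response genes 1 was set apart upwards, the antiviral gene Rsad2 (1.25), and 2 downwards, the transducer Stat2 (-1.24) and the RNA sensor Ifih1 (-1.10). No member of the lists of oxidative phosphorylation (23 measured), cholesterol synthesis (15), endoplasmic reticulum stress (20) or cytosolic ribosomal proteins (19) was set apart. Their largest differences were those of Sdha, a subunit of succinate dehydrogenase (-0.56), the sterol enzymes Sqle (-0.80) and Sc5d (0.73), the stress gene Herpud1 (-0.72) and Rps3 (-0.39).

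Since 4 of the 5 high tumours were 18 months old, the split was repeated within each label group that held both kinds. At 18 months replicates 1, 2, 3 and 6 were set against replicates 4 and 5. There 345 genes (3.03%) were set apart upwards and 524 (4.61%) downwards. Among homozygous tumours of 9 months the single high tumour, replicate 3, was set against the other 5. There 385 genes (3.39%) were set apart upwards and 78 (0.686%) downwards. With fewer tumours on a side, groups lie apart more easily. Counts from splits of different sizes, here and below, therefore cannot be set against each other. The 2 splits share no array. Upwards, 224 genes were set apart in both, 64.9% of the 18-month genes and 58.2% of the homozygous genes. Downwards, 56 were set apart in both, 10.7% of the 18-month genes and 71.8% of the homozygous genes. Of the 345 genes upwards at 18 months 337 (97.7%) also had a positive difference among homozygous tumours, where 48.6% of all genes did, and their median there was 1.21. Of the 524 downwards 518 (98.9%) were negative there, where 51.4% of all genes were, with a median of -0.699. Across the 11369 genes the 2 sets of differences had a Pearson r of 0.73 and a Spearman rho of 0.747, given as a description, since genes are not independent. With 1 high homozygous tumour the second split has no replicate check, and without homozygous replicate 2 its downward count was 125. With the threshold at 8, which sets replicates 3 and 5 against the other 4, its counts were 36 and 1.

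**Figure D4:**
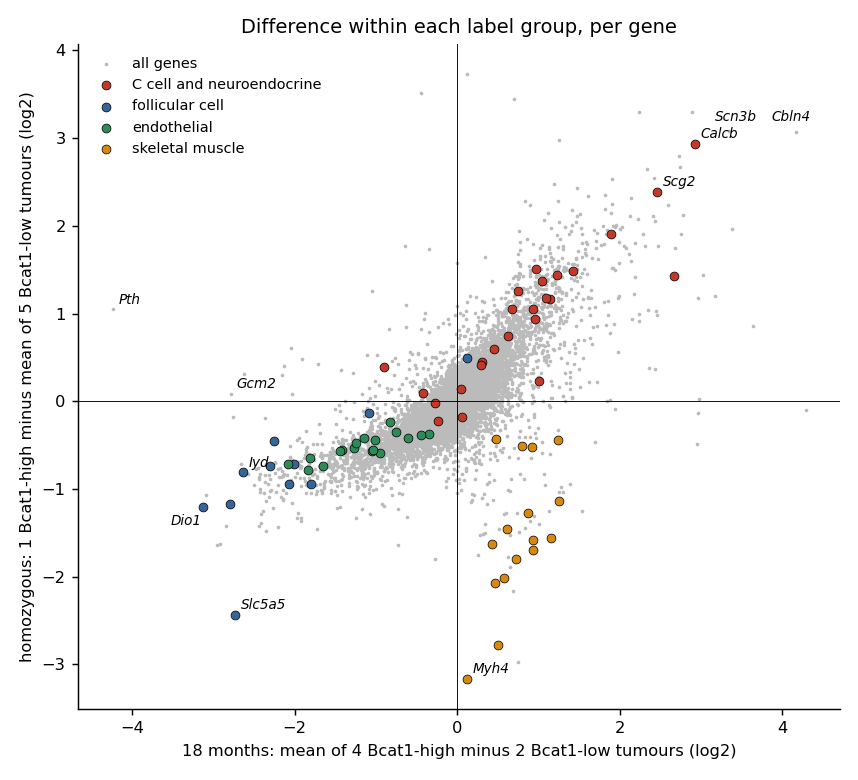
Difference between Bcat1-high and Bcat1-low tumours per gene (log2), at 18 months (horizontal axis, 4 against 2 tumours) and among homozygous tumours of 9 months (vertical axis, 1 against 5); grey points are all genes and coloured points are members of 4 lists. C cell genes lie mostly to the upper right and follicular and endothelial genes to the lower left with smaller values on the vertical axis, while skeletal muscle genes are higher in one split (median 0.76) and lower in the other (median -1.57).

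Genes set apart in both splits were ranked by the smaller of their 2 mean differences. Upwards the first were Cbln4 (4.17 at 18 months and 3.08 among homozygous tumours), Scn3b (3.35 and 3.08), Calcb (2.92 and 2.94), Gng3 (2.72 and 2.79) and Rit2 (2.75 and 2.67). Downwards they were Slc5a5 (-2.73 and -2.43), Dsc3 (-2.96 and -1.63), Slc26a10 (-2.92 and -1.62), the sorting nexin Snx22 (-2.36 and -1.47) and Slc16a3 (-1.73 and -1.45). C cell genes had medians of 0.93 and 1.05 in the splits and GABA and glycine genes 1.28 and 1.5. The filter bears on the GABA and glycine medians here too, so nothing is read from them. Follicular genes had medians of -2.25 and -0.81 and endothelial genes -1.09 and -0.54. Slc7a5 differed by 1.71 and 1.83, Bcat2 by -1.11 and -0.70, and Rest by -1.51 and -0.79.

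Homozygous replicate 3 stood nearer to the 18-month high tumours over the genes set apart upwards than over those set apart downwards. These genes were chosen with this tumour on the high side, and the high mean includes it. Its position over them is therefore partly set by the rule. Over the 460 genes set apart upwards, its median position was 84% of the way from the low mean to the high mean, and the 18-month tumours stood at 117%, 103%, 108% and 87.4%. Over the 457 genes set apart downwards it stood at 50.8%, and the others at 148%, 112%, 111% and 76.5%. It was the high tumour nearest to the low ones in 410 of the 457 genes (89.7%), while 18-month replicate 1 was the most extreme in 387 (84.7%). Homozygous replicate 3 was also set against the 4 high tumours of 18 months. It lay above all of them, and above their mean by at least 1, in 259 of 11369 genes. Of these, 158 were among the 457 genes lower in high tumours, which are 4.02% of all genes. It lay below all 4 tumours, and below their mean by at least 1, in 61 genes. Of these, 20 were among the 460, which are 4.05% of all genes. With 1 tumour on a side these counts have no replicate check, and nothing is read from them.

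Some genes in which replicate 3 lay outside the range of the other high tumours are given here, chosen after their values were seen. Gcg, the proglucagon gene, measured 12.75 in homozygous replicate 3 and 6.6 to 12.59 in the other high tumours, with a low mean of 8.92. Gabra3, a GABA-A receptor subunit, measured 5.86 against 8.57 to 11.25, with a low mean of 5.8. The Ras exchange factor Rasgrf1 measured 7.94 against 10.33 to 10.82, with a low mean of 6.92. For Gabra3 the homozygous tumour was therefore like the low group although its Bcat1 was high.

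Among low tumours, 18-month replicate 5 came nearest to the high ones. It was the highest low tumour in 373 of the 460 genes upwards (81.1%), at a median position of 40.7%, while its own Bcat1 was 6.79. Its C cell list mean was 11.0, against 9.79 to 10.6 in the other low tumours. Replicate 4 of 18 months stood at 12.5%. Homozygous replicate 5, whose Bcat1 of 8.18 was the highest of the low ones, stood at -4.62%. Of the 25 and 2 genes set apart with the threshold at 8, when this tumour joined the high group, 23 and 1 were also so at 9. The groups at these thresholds differ in this tumour alone, so most of that overlap is built in.

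**Figure D5:**
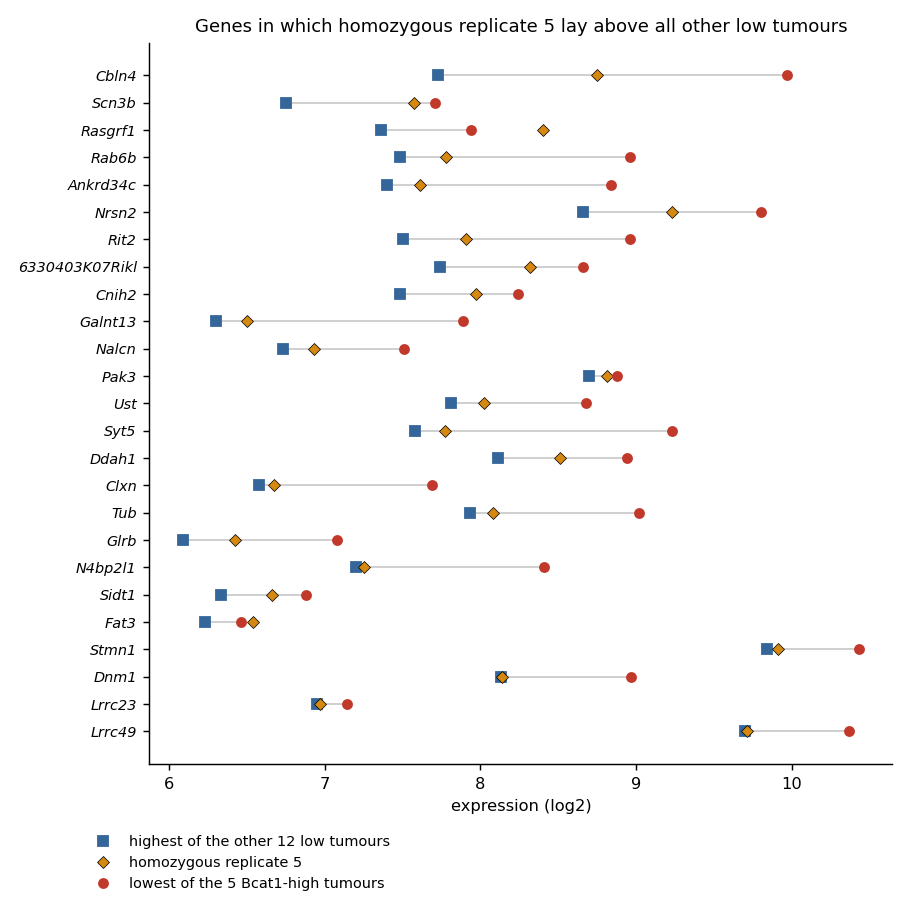
Log2 expression (horizontal axis, not from 0) of the 25 genes set apart upwards with a Bcat1 threshold of 8: orange diamonds are homozygous replicate 5, blue squares the highest of the other 12 low tumours and red circles the lowest of the 5 Bcat1-high tumours. Cbln4 shows the diamond well between them (8.75, between 7.73 and 9.97), whereas in Rasgrf1 and Fat3 the diamond lies above the red circle.

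These 25 genes, which the threshold of 8 selected, included Cbln4, Scn3b, Rab6b, Rit2, Nrsn2, Syt5 and Glrb. In homozygous replicate 5 Cbln4 measured 8.75, Scn3b 7.57 (other low tumours up to 6.75) and Nrsn2 9.23 (up to 8.66). Rasgrf1 measured 8.40 there, above the 7.94 of homozygous replicate 3. The sodium leak channel Nalcn measured 6.93 (up to 6.73) and Cnih2, an AMPA receptor auxiliary protein, 7.97 (up to 7.48). The C cell list mean of this tumour was 10.2, within the range of the other low tumours.

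Age was next separated from Bcat1 as far as the arrays allow. Among heterozygous Bcat1-low tumours, 2 of 18 months were set against 6 of 9 months, and 30 genes (0.264%) were set apart upwards and 27 (0.237%) downwards. Upwards the largest mean differences among these were those of Pcsk1n, the convertase inhibitor proSAAS (1.3), the pacemaker channel Hcn4 (1.26), the insulin receptor relative Insrr (1.25), the nociceptin precursor Pnoc (1.20) and Nmnat2, an enzyme of axonal NAD synthesis (1.15). Pcsk1n measured 12.2 in both low tumours of 18 months and 10.6 to 11.3 in heterozygous tumours of 9 months. Downwards the largest were those of the muscle genes Myot (-2.61), Myl11 (-2.56), Myl1 (-2.50), Trdn (-2.41) and Tnnc2 (-2.37). The skeletal muscle list had a median of -2.23 here, with list means of 8.86 and 7.0 at 18 months and 8.78 to 10.7 at 9 months, and its part was not tested. Of the 30 genes upwards 15 were also set apart upwards in high tumours, and of the 27 downwards 1 was set apart downwards there. Over all 11369 genes these shares were 4.05% and 4.02%. The low heterozygous tumours are part of both comparisons, so the overlaps are not separate findings and nothing is read from them. Both low tumours of 18 months matter to the counts of 30 and 27. Without replicate 4 they were 214 and 105, and without replicate 5 the upward count was 10.

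At 18 months Insrr and Pnoc were highest in the Bcat1-low tumours. Insrr measured 10.7 and 10.9 in the low tumours of 18 months and 8.14, 8.43, 8.14 and 10.5 in the high ones of that age. Pnoc measured 10.4 and 10.9 against 7.08, 7.57, 8.46 and 9.92. In both, replicate 6 was the highest of the high tumours. For Bcat1 the low tumours of 18 months differed from those of 9 months by -0.04. Both sides were chosen for Bcat1 under 9, so nothing is read from this value. The same difference was 0.88 for Cbln4, 0.92 for Calcb, 0.85 for Slc7a5, -0.69 for Duox1 and -0.37 for Slc5a5.

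The label groups allow a test, by limma across all 11370 genes with Benjamini-Hochberg adjustment. Because 4 of the 6 tumours of 18 months were Bcat1-high, this test is not independent of the split. Between heterozygous tumours of 18 and 9 months 2458 genes (21.6%) rose and 2551 (22.4%) fell. Of the C cell list 20 of 25 rose and 1 fell, of the vesicle list 18 of 24 rose and 1 fell, and of the channel list 15 of 20 rose and 0 fell. Of the GABA and glycine list 9 of 10 rose and 0 fell. Weak genes such as Glrb (low mean 5.85) passed the filter through the high tumours, so nothing is read from this last count. Of the follicular list 9 of 11 fell, of the endothelial list 17 of 18 and of branched-chain catabolism without Bcat1 13 of 21, with 0 rising in each. Bcat1, by whose level the tumours were split, was itself 2.62 higher at 18 months in this fit (SE 0.80, adjusted p = 0.0145). Of the amino acid transport and sensing list 11 of 17 rose and 1 fell. Bcat2 fell by 0.71 (SE 0.22, limma adjusted p = 0.0172), Slc7a5 rose by 1.98 (SE 0.39, limma adjusted p = 0.00114) and Rest fell by 1.31 (SE 0.29, limma adjusted p = 0.00234). Slc38a3, set apart by Bcat1, did not pass (-1.19, SE 0.53, limma adjusted p = 0.0771), and neither did Top2a (0.84, SE 0.39, limma adjusted p = 0.0887). Slc38a3 passed without 18-month replicate 4 (-1.56) or 5 (-1.46), and Top2a without homozygous replicate 3 (0.84) or 18-month replicate 5 (1.08).

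Between homozygous and heterozygous tumours of 9 months, where 1 of 12 tumours was Bcat1-high, limma called 0 genes upwards (0%) and 0 downwards (0%). At an unadjusted p under 0.05 there were 995 genes (8.75%), and the smallest adjusted p was 0.102. With only the 2 compared groups in the fit, 4 genes were called upwards and 20 downwards. Cbln4, Calcb, Slc5a5 and Bcat2 had limma adjusted p-values of 0.805, 0.771, 0.741 and 0.903 in this contrast.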

How the data were processed

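The values deposited by the authors are log2 expression levels of 29214 probe sets on 18 arrays. RMA and Affymetrix Expression Console 1.3.0.187 made them, per the submitters' processing notes, which state no order or role. RNA was purified with RNeasy Mini columns and DNase, amplified with Ovation PicoSL WTA V2 and labelled with the Encore Biotin module, per the labels' protocols. Array values compress differences near both ends of the scale, and arrays give no depth, so their number limits precision.

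The platform annotation gave 1 symbol for 15310 probe sets, several for 323 and none for 13581. For 527 of 14506 genes several probe sets were present, of which the brightest on average was taken. A gene was kept from a mean of 6.32 upwards, the 30th percentile over probe sets, which left 11370 with Bcat1. The mean was over all 18 arrays, so weak genes could pass through the group where they were higher. Groups came from the labels, and the Bcat1 split from its threshold of 9. Label contrasts were fitted as a means model of 3 groups with limma 3.58.1 in R 4.3.3 and tested on simulated data. A gene counted as called at an adjusted p under 0.05. Where 18 months is compared with 9, both are heterozygous.

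The members, the 35 lists (22 of programmes, 13 of cell types; 553 of 667 entries measured) and the tests were chosen with earlier results of these data known. Named by rule were Bcat1, Bcat2, Cdkn1b, Calca, Chga, Ret, Tg and Gcm2. The rule added the 12 largest differences each way among genes set apart, and up to 4 genes set apart per list (2 largest where none was). It also added the 5 largest mean differences each way among genes set apart in both within-group splits, by the smaller of the 2. The 5 largest each way in the low tumours by age were added too. A few other list members are named with their values, and were chosen after these were seen. Promoters are those of RefSeq GRCr8. Alternatives were other thresholds, filters, scalings, probe set rules, limma settings, the replicate number as a block and leaving out each array.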

Additional observations from a re-analysis of the deposited data

Results flagged for a closer look

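Among the 5 Bcat1-high tumours, 14 of 152 values examined (genes and list means) had 1 tumour far from the other 4. By its construction the limit used is passed by chance in about 1 in 20 groups of independent normal values, but these values are not independent of each other, and no explanation was tested.

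Replicate 1 of the 18-month group was the lowest for the follicular genes Tg (11.1) and Dio1 (6.55), for the sterol enzyme Sqle (9.08), for the stress gene Herpud1 (9.68) and for the mean of the glutamate, glutamine and alpha-ketoglutarate list (9.85). Replicate 2 was the lowest for the GTPase Rit2 (8.96). Replicate 6 was the highest for the cytotoxic granule gene Nkg7 (11.0), the T cell kinase Lck (8.07), the mean of T and NK cell genes (8.25) and the mean of macrophage genes (9.42).

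Homozygous replicate 3 was the highest for Pccb (10.1) and for Ucp1, the uncoupling protein of brown fat (8.6). It was the lowest for the ATP synthase subunit Atp5mc1 (10.5) and for the mean of the amino acid transport list (9.64). It is the only Bcat1-high tumour of 9 months and the only homozygous one, so genotype, age and single tumour cannot be told apart in these 4 values.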

How the results depend on the processing

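Of 3235 gene differences recomputed under the alternatives 3221 kept their value within 1 SD and 14 moved further (all with the Bcat1 threshold at 8). A change of sign was scored only for named genes set apart, and 0 of these reversed. With no minimum difference, the counts of genes set apart upwards and downwards were 1366 and 1237 in all tumours, 2432 and 2504 within 18 months, 3429 and 3279 within homozygous tumours and 1561 and 1527 in low tumours by age. With the threshold at 8 they were 25 and 2 in all tumours and 36 and 1 within homozygous tumours, and with the threshold at 10 the upward count was 262. The homozygous split has no value with the threshold at 10 or without replicate 3. With only the compared groups in the fit, the genotype contrast called 4 genes higher and 20 lower. Centring or quantile scaling gave 53.2% and 47.6% upwards among genes set apart, against 50.2%.

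Leaving out each array in turn gave 421 to 532 upwards and 399 to 639 downwards in all tumours, 267 to 488 and 428 to 673 within 18 months, and 353 to 421 and 65 to 125 within homozygous tumours. For low tumours by age it gave 10 to 214 and 27 to 105, for limma by age 2071 to 2860 and 2157 to 2880, and for limma by genotype 0 to 1 and 0 to 2. Chosen after seeing the data were 2 more: heterozygous tumours only (541 and 660) and low tumours of 7.5 or more in Bcat1 left out (455 and 455).

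The replicate numbers did not pair the tumours (correlations of same-numbered deviations from -0.288 to 0.353), and the replicate block gave 2341 and 2525 genes by age and 0 and 0 by genotype. Of 6058 limma values of named genes 5994 kept their call, 34 lost it and 30 gained it. Of 22 genes set apart that have other probe sets, 0 of 31 such probe sets had the opposite sign. Sizes were close for some, such as Nalcn (2.47 and 2.43). Others were far weaker and under the minimum of 1, such as Kcnip2 (1.06 and 0.15), Pgbd5 (1.51 and 0.32) and Cybrd1 (-2.23 and -0.53). Arrays limit low levels near the filter and bright ones near the top.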
